A study of Mus musculus with 12 samples.

Results

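The genes described here are 10 genes of iron uptake, storage and hepcidin signalling, Trf, Tfrc, Tfr2, Hamp, Slc40a1, Slc11a2, Steap3, Fth1, Ftl1 and Hpx. They were chosen by gene symbol, and all 10 were found among the 30743 rows of the deposited table. The livers came from male C57BL/6J fetuses harvested at 15 ± 0.5 dpc. Dams received control diet (13.5 kcal% fat, 6 livers) or a high-fat diet (HFD, 60 kcal% fat, 6 livers) for 12 to 14 weeks. Which livers came from the same dam is not given in the sources used here. PolyA-selected RNA of whole liver was sequenced, so every value is a mixture of hepatocytes, erythroid cells and other blood and stromal cells, in which fewer cells of a type cannot be told apart from less RNA per cell. The value used for each gene is the authors' average log2 log2 CPM (counts of a gene scaled to the size of the library) over all 12 livers. It has no SD and is not split by diet, so the difference between HFD and control livers was not analysed here.

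Iron travels in plasma bound to transferrin and enters cells when transferrin receptors carry it into endosomes, where it is reduced and passed into the cytosol. Ferritin stores what is not used, and ferroportin is the route by which iron leaves cells. Hepcidin, a hormone made by hepatocytes, closes that route by causing ferroportin to be degraded. In the fetal liver, where red cells are made, hepatocytes and hemoglobin-forming erythroblasts handle iron side by side. Iron regulatory proteins bind a short RNA hairpin, the iron-responsive element, in several of these transcripts. Binding in a 5′ UTR holds back translation, and binding in the 3′ UTR of the transferrin receptor protects the RNA from decay.

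The hairpin was looked for because several of these transcripts are known to carry it. Finding it in them is therefore no independent result, and the shares among all genes are given for description only. The pattern was a C, 5 bases, the loop CAGTGN and 5 bases able to pair with the first 5 (G with T allowed), on the sense strand of UTRs of GENCODE M21 coding transcripts. In the 5′ UTR it was found in 3 of the 10 genes, against 0.151% of the 20580 genes searched (31 genes). A gene was counted if any of its coding transcripts held the pattern. The site lay in 4 of the 5 annotated coding transcripts of Fth1, 1 of the 2 of Ftl1 and 1 of the 4 of Slc40a1. These 3 sites are shown with the loop in capitals.
Fth1: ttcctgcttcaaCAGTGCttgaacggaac
Ftl1: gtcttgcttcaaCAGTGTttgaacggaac
Slc40a1: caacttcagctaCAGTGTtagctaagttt
On GRCm38, the build of mm10, they lie at chr19:9982732-9982760 (plus strand), chr7:45459779-45459807 (minus strand) and chr1:45925465-45925493 (minus strand). The sites of the ferritin heavy and light chain genes were identical at 26 of 29 positions, the last 11 among them. The site of Slc40a1 matched each of these at 13 of 29 positions.

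In the 3′ UTR the pattern was found in 1 of the 10 genes, Tfrc, and in 0.615% of the 20962 genes searched (129 genes). Tfrc held 4 sites, shown in the order of the transcript because their repetition sets this gene apart from the other 9.
Tfrc site 1: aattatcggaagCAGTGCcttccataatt
Tfrc site 2: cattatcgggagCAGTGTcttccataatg
Tfrc site 3: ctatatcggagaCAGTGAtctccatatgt
Tfrc site 4: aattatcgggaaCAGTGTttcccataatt
They lie on the plus strand at chr16:32631219-32631247, chr16:32631598-32631626, chr16:32631663-32631691 and chr16:32631710-32631738. Each site lay in 1 of the 3 annotated coding transcripts of Tfrc. Between any pair of the 4 sites, 18 to 25 of the 29 positions were identical. The whole pattern, with its pairing bases, was not found in the UTRs of Trf, Tfr2, Hamp, Slc11a2, Steap3 or Hpx. This says nothing of the loop letters without that full pairing, or of other variant hairpins. A match is a description of sequence, and no binding was measured.

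The ferritin heavy chain led the 10 genes and the second transferrin receptor came last. Together the 10 genes took 0.490% of the counted reads, and Fth1 alone made up 65.4% of that share. All 10 had reads, 8 lay above 10 CPM, and 5 lay above 90% of the 19652 rows with reads. Their median average CPM was 66.1.

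**Figure D1:**
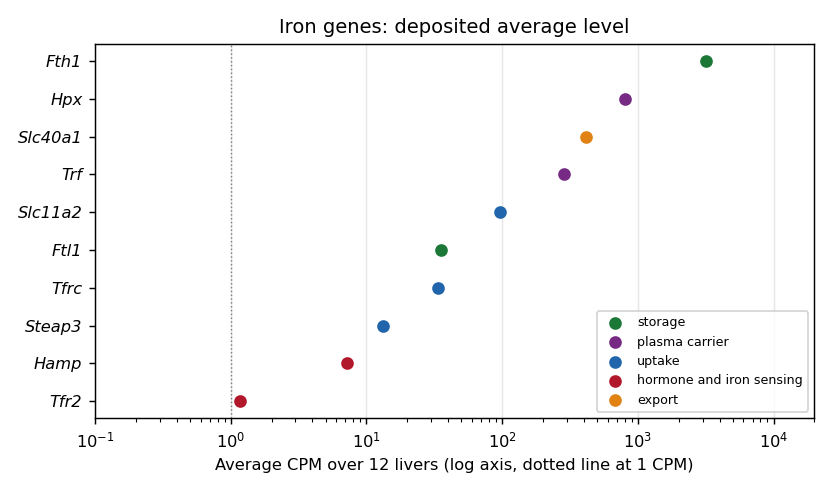
Average CPM over the 12 livers for each of the 10 iron genes (points, log axis), coloured by role. Fth1 stands at 3202 CPM and Tfr2 at 1.16 CPM, just above the dotted line at 1 CPM. The average has no error bar because the deposited value pools all livers.

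Among the storage genes, Fth1 encodes the ferritin heavy chain, which oxidises iron as it enters the ferritin shell, and Ftl1 the light chain, which helps the core to form. Fth1 (chromosome 19, 9980598 to 9985098) had an average of 3202 CPM, equal to about 42045 reads per library. Ftl1 (chromosome 7, 45457944 to 45459884) had 35.2 CPM, or about 461 reads per library. Per kilobase of the longest transcript, the level of Fth1 was 1553 and that of Ftl1 36.4 CPM, a ratio of 42.7 that ranged from 35.1 to 91.4 over 4 ways of measuring length (longest transcript, longest coding transcript, union of exons and coding length). The value of Ftl1 is uncertain, since 90.6% of the 50-base words of its transcript also occur in transcripts of 17 other annotated genes, several of them named as ferritin pseudogenes. For Fth1 this share was 4.01%, with 1 other gene. What part these shared words had in the ratio was not tested.

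Of the plasma carriers, Hpx encodes hemopexin, which binds free heme, and Trf encodes transferrin. Hpx (chromosome 7, 105591613 to 105600137) averaged 807 CPM and lay above 99.4% of the rows with reads. Trf (chromosome 9, 103204001 to 103230444) averaged 287 CPM, above 97.6% of them. Per kilobase, Hpx reached 538 CPM and Trf 112 CPM, a ratio of 4.83 that ranged from 4.26 to 6.23 over the same length definitions. Hpx shared no 50-base word with another gene. Trf shared 79.8% of its words with 1 overlapping gene model, Gm20425, so a read of Trf can fit more than 1 gene model, and the value of Trf is uncertain.

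For uptake, Tfrc encodes the transferrin receptor of erythroblasts and dividing cells, Steap3 the endosomal reductase of iron, and Slc11a2 the transporter DMT1, which moves the reduced iron out of the endosome. Slc11a2 (chromosome 15, 100387898 to 100425072) averaged 97.0 CPM, Tfrc (chromosome 16, 32608920 to 32632794) 33.8 CPM and Steap3 (chromosome 1, 120190757 to 120272705) 13.2 CPM. In the deposited table the transporter was thus listed above the receptor, by 3.17 times per kilobase (range 2.79 to 3.85 over the length definitions). This range covers length only. The unevenness between genes, described below for widely used reference genes, was not tested for this ratio. Steap3 was the lowest of the uptake genes per kilobase, at 2.55 CPM, against 6.92 CPM for Tfrc and 22.0 CPM for Slc11a2. Tfrc and Steap3 shared no 50-base word and no exon base with another gene, and for Slc11a2 6.33% of the exon bases overlapped 1 other gene model.

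Export and its control were represented by Slc40a1, Hamp and Tfr2. Slc40a1 encodes ferroportin, Hamp encodes hepcidin, and Tfr2 is a receptor through which hepatocytes sense iron-loaded transferrin. Slc40a1 (chromosome 1, 45908068 to 45926523) averaged 413 CPM, with only Fth1 and Hpx above it among the 10. Hamp (chromosome 7, 30942368 to 30944032) averaged 7.24 CPM, or about 93.1 reads per library. Its transcript is the shortest of the 10 at 410 bases, and per kilobase it stood at 17.7 CPM, above Tfrc. With its paralog Hamp2, listed at 0.752 CPM, it shared 16.6% of its 50-base words, so reads from the 2 genes could be mixed. Tfr2 (chromosome 5, 137569840 to 137587481) averaged 1.16 CPM, of which 1.01 CPM remained once the prior count was taken off. This equals about 13.2 reads per library, with an exact Poisson 95% interval of 0.858 to 1.18 CPM for counting error only. Tfrc stood 18.3 times higher than Tfr2 per kilobase, the lowest ratio of the 4 length definitions, and 30.5 times with the definition that gave the highest. Both ratios include the prior count, which makes up more of the value of Tfr2 than of Tfrc (33.8 CPM, 33.7 without it). They are therefore lower than ratios of reads alone, and they leave out the counting error of Tfr2.

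The order of the levels per kilobase was Fth1, Hpx, Trf, Slc40a1, Ftl1, Slc11a2, Hamp, Tfrc, Steap3 and Tfr2. With all 4 length definitions, 6 of the 10 kept their place, namely Fth1, Hpx, Ftl1, Tfrc, Steap3 and Tfr2. Trf and Slc40a1 exchanged places with the definition, since their ratio was 1.06 with the longest transcript and between 0.567 and 1.88 over all 4. Slc11a2 and Hamp likewise exchanged places 6 and 7. The spread between livers is not part of the deposited average, so no neighbours in this order were tested against it.

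**Figure D2:**
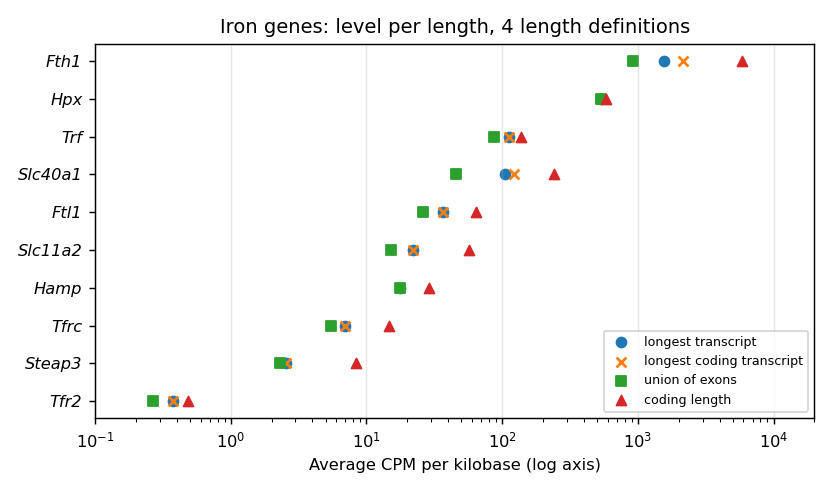
Average CPM per kilobase (log axis) of the 10 iron genes, with each marker standing for 1 of 4 definitions of length (longest transcript, longest coding transcript, union of exons, coding length). Fth1 and Hpx stay in the first 2 places and Steap3 and Tfr2 in the last 2, whereas the markers of Trf and Slc40a1 cross.

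The wider pathway was described with 3 lists. Genes that sense iron or handle it inside cells had a median of 15.5 CPM, and 13 of the 23 in the table lay above 10 CPM. The highest per kilobase were Pcbp1, an iron chaperone that delivers iron to ferritin (378 CPM), Abcb10, a mitochondrial transporter of erythroid cells (304 CPM), and Glrx5, needed for iron-sulfur clusters (244 CPM). All 3 lay between Hpx and Trf in level per kilobase of the longest transcript. With the coding length all 3 lay above Hpx, at 647, 609 and 1568 against 585 CPM per kilobase. Near the low end, Ncoa4, which carries ferritin to its breakdown, had 0.157 and Steap2 0.0797 CPM per kilobase. Ftmt, the mitochondrial ferritin, was at the lowest value in the table, that of rows without reads.

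Genes of plasma iron and heme scavenging had a median of 17.9 CPM, with 10 of the 15 in the table above 10 CPM. After Alb, the highest were Blvrb, a biliverdin reductase (810 CPM per kilobase), and Hmox1, the inducible heme oxygenase (313 CPM per kilobase), both above Trf. Heph and Hephl1, which oxidise iron at its export, and Cd163, the macrophage receptor of hemoglobin bound to haptoglobin, were the lowest, with 0.0522, 0.0483 and 0.0357 CPM per kilobase. Each of these 3 was listed under 1 CPM. Once the prior count was taken off, 0.0951 CPM remained for Heph, 0.102 for Hephl1 and 0.00639 for Cd163. Cd163 had about 1 read over all 12 libraries, fewer than the floor of 3 reads.

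Genes that regulate hepcidin were listed lowest, with a median of 2.20 CPM and 9 of the 22 in the table above 10 CPM. Cebpa, a hepatocyte transcription factor, had 68.3 CPM per kilobase, Id1, a target of BMP signalling, 35.6, and Hfe2, which encodes the BMP co-receptor hemojuvelin, 20.3. Hepcidin itself had 17.7 CPM per kilobase. At the other end, Atoh8 had 0.0673, Acvr2a 0.0279 and Neo1 0.0250 CPM per kilobase. These values are mostly prior count divided by length. Over all 12 libraries, Atoh8 and Acvr2a had about 1 read each and Neo1 about 5. Tmprss6, the protease that cleaves hemojuvelin, and Stat3 and Il6ra, through which interleukin 6 raises hepcidin, were listed at the lowest value.

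**Figure D3:**
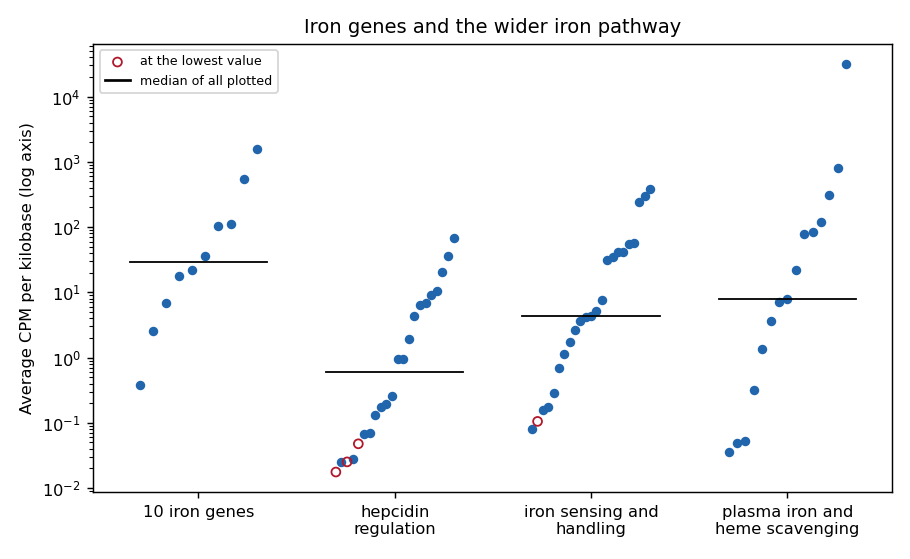
Average CPM per kilobase of the longest transcript (log axis) for the 10 iron genes and the 3 wider lists, each point a gene and each bar the median of the plotted genes. Open red circles are the 4 genes at the lowest value, Tmprss6, Stat3, Il6ra and Ftmt.

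A low value in this table does not show that a gene was silent. Of 23 reference genes that nearly all cells use, a list drawn up after the data were seen, 12 were at 10 CPM or under, among them Ppia at 0.165 and Gapdh at 5.20 CPM. The share of genes above 10 CPM was lower where more protein-coding transcripts were annotated for the gene. All 6 reference genes with 1 coding transcript lay above 10 CPM, against 2 of 5 with 2 and 3 of 12 with 3 or more. Of the protein-coding rows, 33.0% of the 6018 with 1 coding transcript, 25.2% of the 4923 with 2 and 21.1% of the 7775 with 3 or more lay above 10 CPM. The share at the lowest value had no such order, with 21.0%, 27.4% and 20.3%. Hamp has 1 annotated coding transcript, Ftl1 and Hpx have 2, Tfrc 3, Slc40a1 4, Fth1 and Steap3 5, and Trf, Tfr2 and Slc11a2 6. Of the 7 iron genes with 3 or more, 6 lay above 10 CPM and Tfr2 did not. Ftl1 and Hpx, with 2, lay above 10 CPM, whereas Hamp, with 1, lay below it at 7.24 CPM. The part of the transcript number in the levels of the 10 genes was not tested.

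**Figure D4:**
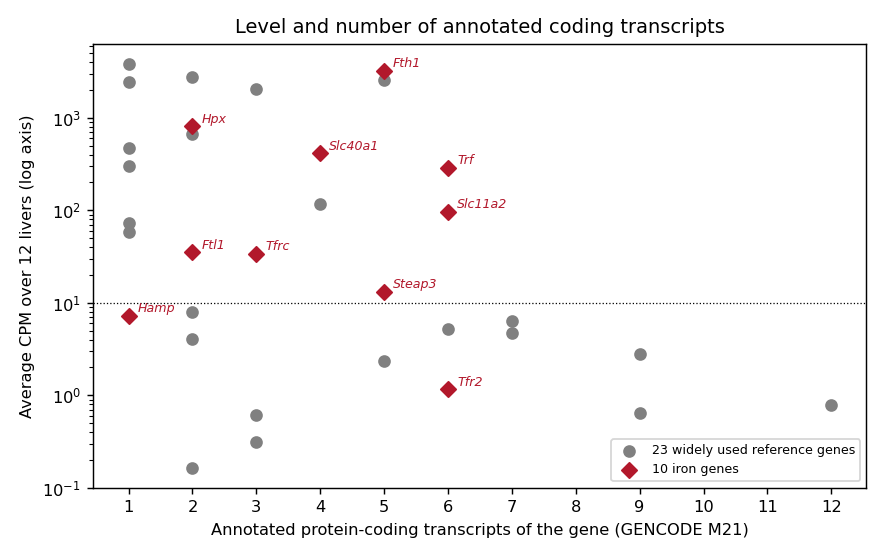
Average CPM (log axis) against the number of annotated coding transcripts for 23 widely used reference genes (grey circles) and the 10 iron genes (red diamonds), with a dotted line at 10 CPM. The reference genes with 1 coding transcript lie between 58.1 and 3805 CPM, and those with 3 or more between 0.312 and 2581 CPM.

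The markers of the tissue showed the same unevenness. Of the hepatocyte markers, Alb (63314 CPM) and Afp (54525 CPM) were the 2 highest and Apoa1 followed, while Serpina1a was at 0.184 CPM and Hnf4a at the lowest value. Of 8 erythroid markers in the table, 7 were above 10 CPM, among them Slc4a1 (12037 CPM), and Alas2, the first enzyme of erythroid heme synthesis, was listed at 0.704 CPM. Macrophage markers ran from 0.209 CPM for Cd68 to 385 CPM for Cd5l, with Emr1 at the lowest value. Endothelial markers were led by Lyve1 (151 CPM), with Pecam1 at the lowest value, and the 4 markers each of megakaryocytes (4.99 to 251 CPM) and neutrophils (112 to 759 CPM) had reads. Ltf, in the scavenging list, is also a neutrophil marker, and Alb a hepatocyte marker. Which cells carried the RNA of the 10 iron genes was not tested.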

How the data were processed

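Reads of 12 libraries were trimmed with cutadapt 1.2.1 and aligned to mm10 with Subread 1.3.6-p1 per the labels, and the authors compared the diets with edgeR. The authors annotated genes with biomaRt. The counting tool, its gene models and its use of strand are not given in the sources used here. The deposited value used is the authors' average log2 CPM, with a prior count added and all livers pooled. Rows without reads therefore stand at 0.152 CPM, and values near it are mostly prior count. The table's 8 other value columns, beside a copy of that average, hold the authors' comparison of the diets (log2 fold changes, p-values, adjusted p-values and signed fold changes, with a common and a tagwise dispersion) and were not used. The planned test of the diet effect needs values of single livers and was not run.

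CPM was computed as 2 to the power of the average. With a prior count of 2, the lowest value (11091 rows) gives a mean effective library size of 13129748 reads, from which reads per library were derived. The 1267 rows with a single read lay 0.058 to 0.0597 above it on the log2 scale, where 0.0589 follows from that prior count and 12 libraries. Intervals and floors cover counting error only, and 3 reads over all libraries equal 0.019 CPM. In simulated data of 5000 genes, the median error of the derived reads was 0.0059%. Genes with few reads were left out of that error. The simulation assumed the same prior count, so it checks the calculation and not that prior count.

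Positions, lengths and transcripts came from GENCODE M21 (GRCm38), which matched 21063 symbols, and older symbols through RefSeq synonyms. Main length was that of the longest transcript. All 10 iron genes were named, and of each other list the 3 highest and 3 lowest per kilobase and those at the lowest value were eligible. Members and lists were chosen with earlier results of these data known. Computations ran in Python 3.11.15 (numpy 2.4.6, scipy 1.17.1, pandas 2.3.3), and plots were drawn with matplotlib 3.10.9. Some genes of the lists are not reported here by name.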

Additional observations from a re-analysis of the deposited data

How the results depend on the processing

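The median level of the 10 genes per kilobase was 29.2 CPM with the longest transcript and with the longest protein-coding transcript (the latter added after seeing the data), 22.0 CPM with the union of exons and 60.5 CPM with the coding length. Subtracting the prior count left the median level at 66.0 CPM. No gene moved beyond its counting interval when that interval was scaled to the value with the prior count. Tfr2 went from 1.16 to 1.01 CPM. The median percentile was 87.1 among rows with reads and 75.1 among rows above 1 CPM. Of the single genes, coding length moved 10 and the union of exons 8 beyond counting error. The longest protein-coding transcript moved 2, Fth1 and Slc40a1. Such a shift follows from the annotated lengths alone. DESeq2 size factors and its Wald test, no filter on low counts and leaving out each liver were not run, since they need values of single livers. No paired analysis was possible because the table used holds 1 average per gene. Depth limits Tfr2 most, at about 13.2 reads per library.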
